A study of Oryza sativa Japonica Group with 9 samples.

Results

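The genes described here are the rice BAHD acyltransferase genes, taken as every locus whose description in the deposited tables carries the Pfam domain PF02458 (Transferase family). The rule found 109 genes of 35902, with 108 in the table for N deficiency, 106 in the table for P deficiency and 105 in both. Os06g0185500 carries the domain and is among them. Messenger RNA was sequenced from roots of Nipponbare, a Japonica rice cultivar, in 3 groups of 3 biological replicates: roots short of nitrogen (N deficiency), roots short of phosphorus (P deficiency) and roots with control nutrients (labelled CK). Plants of all 3 groups were of the same cultivar and no transgene or mutation is labelled. The age of the plants, the nutrient concentrations and the length of the treatments do not appear in the labels. Libraries held 17931023 to 22752492 reads assigned to genes, and the same 3 control libraries served as reference for both deficiencies.

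BAHD enzymes move an acyl group from a coenzyme A thioester onto an alcohol or an amine, and share the short protein motifs HXXXD and DFGWG. In plants they make the shikimate esters on the way to lignin monomers, the ferulate esters of suberin and cutin, hydroxycinnamoyl amides of polyamines and aromatic amines, and acylated flavonoids. In grasses some of them also place p-coumarate on lignin and hydroxycinnamates on the arabinoxylan of cell walls, so the family touches the wall and the barriers of the root. The deposited tables give a gene symbol to 1 of the 109 genes, AT10 (Os06g0594600), a rice enzyme known to act on the hydroxycinnamates of cell wall arabinoxylan. The RefSeq gene table used here (assembly ASM3414082v1) matched the symbol AT10 and 0 of the 109 locus IDs, so the other genes are given by locus ID and no substrate is assigned to them.

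As a check of the tissue, the root marker Os02g0662000 stood between 37649 and 94680 normalised reads in the 9 libraries, on a scale common to all of them (recovered reads divided by median-of-ratios size factors), lowest in P library 3. The other root list, 35 genes of CASP-type membrane proteins, summed to 19963 to 24807 in N libraries and 15147 to 17773 in P libraries. Control libraries had 19014 to 20896, so every P library lay below every control library on this list. Chlorophyll a-b binding genes, listed as markers of shoot tissue, were also read in all libraries. Their summed level over 22 genes was 7748, 9854 and 6907 normalised reads in N libraries 1, 2 and 3 and 24833, 17812 and 26030 in P libraries 1, 2 and 3, against 23135, 37219 and 63439 in control libraries 1, 2 and 3. On this list the N libraries lay below the other 6. The other shoot list, 4 Rubisco small subunit genes, summed to 330, 476 and 361 in N libraries 1, 2 and 3 and 697, 542 and 283 in P libraries 1, 2 and 3, against 619, 645 and 783 in control libraries 1, 2 and 3, with P library 3 lowest of all. The part of these differences in the results below was not tested. These are bulk root samples, in which fewer cells of a type and less RNA per cell cannot be told apart.

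The family was unevenly expressed. On the common scale, 20 of the 105 genes in both tables averaged 1000 normalised reads or more, 33 averaged 50 to 1000, 39 averaged 1 to 50 and 13 stayed below 1. The median gene averaged 50.7 and the highest, Os02g0611800 (chromosome 2, 24080704 to 24084615, plus strand, in the coordinates of the deposited tables, the build behind them being unstated), averaged 28530. Os02g0611800 alone held 27.3% to 30.4% of the family's normalised reads in every library. Per kilobase of gene length it had 19313 ± 2415 normalised reads in N-deficient roots and 18483 ± 2455 in P-deficient roots, against 12082 ± 1765 in control roots (SD, n = 3 each). The next level per kilobase in N-deficient roots was that of Os11g0507200, at 7236 ± 1897, followed by Os06g0595800 at 5619 ± 760, Os01g0185300 at 4948 ± 808 and Os06g0185500 at 4722 ± 1965. Each of these differed from the next by less than the larger of the 2 SDs. In control roots Os06g0185500 stood at 402 ± 168 per kilobase, below the 2096 ± 186 of Os09g0422000 and the 1662 ± 197 of Os01g0104900, genes that it exceeded in both deficiencies.

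Summed over the 105 genes, the family reached 104622, 115640 and 137890 normalised reads in N libraries 1, 2 and 3 and 117825, 107461 and 99094 in P libraries 1, 2 and 3, against 66190, 65788 and 83147 in control libraries 1, 2 and 3. Every deficient library lay above every control library. As a share of all normalised reads on this scale the family took 0.526% to 0.652% in N-deficient roots and 0.493% to 0.538% in P-deficient roots, against 0.328% to 0.404% in control roots. Without Os02g0611800 the sums were 75083 to 100220 in N-deficient roots and 71988 to 82460 in P-deficient roots, against 46999 to 58924 in control roots, so the difference in the sum was not that of the highest gene alone.

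**Figure D1:**
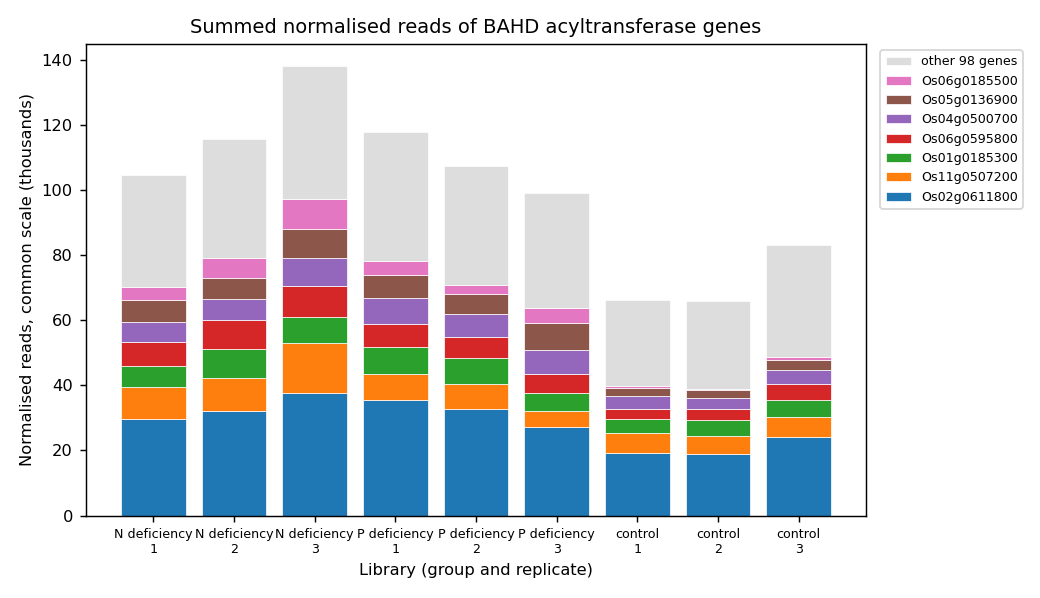
Summed normalised reads (common scale, in units of 1000) of the 105 BAHD genes in both tables, per library, with the 6 genes of highest mean and Os06g0185500 drawn separately and the other 98 in grey. The N and P libraries reach 99094 to 137890 normalised reads and the control libraries 65788 to 83147.

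Which family members respond to a shortage of nitrogen was read from the N-deficient and control libraries of 1 table. Of 98 members tested, 28 rose, 6 fell and 64 missed the threshold (an adjusted p under 0.05 in limma, by Benjamini-Hochberg over all genes), which is 34.7% of them called beside 12.8% of all 32680 genes tested. The share that rose was 28.6% beside 6.9% of all genes, and the share that fell was 6.12% beside 5.94%. A change of at least 1 on the log2 scale went with the call in 25 members, 25.5% beside 6.77% of all genes. The median log2 fold change of the 98 members was 0.29, against -0.01 over all genes tested, and 65 of the 98 were positive. The other 10 members in the table had 2 to 4 reads in all over its 6 libraries and were not tested.

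Calls went with expression level. Of the 21 members that averaged 1000 normalised reads or more over the 6 libraries, 14 rose and 1 fell, 15 called in all, where 22.1% of all genes at that level were called. Of the 23 members between 100 and 1000, 8 rose and 2 fell, beside 15.6% of all genes at that level. Of the 27 members between 10 and 100, 4 rose and 3 fell, beside 11.2%, and of the 27 below 10, 2 rose and none fell, beside 2.62%. In each of these 4 bins the members' share was above that of all genes, by counts that are small in the lower bins. The 2 calls below 10 were those of Os11g0643100 and Os04g0194433, which passed with neither edgeR nor DESeq2.

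**Figure D2:**
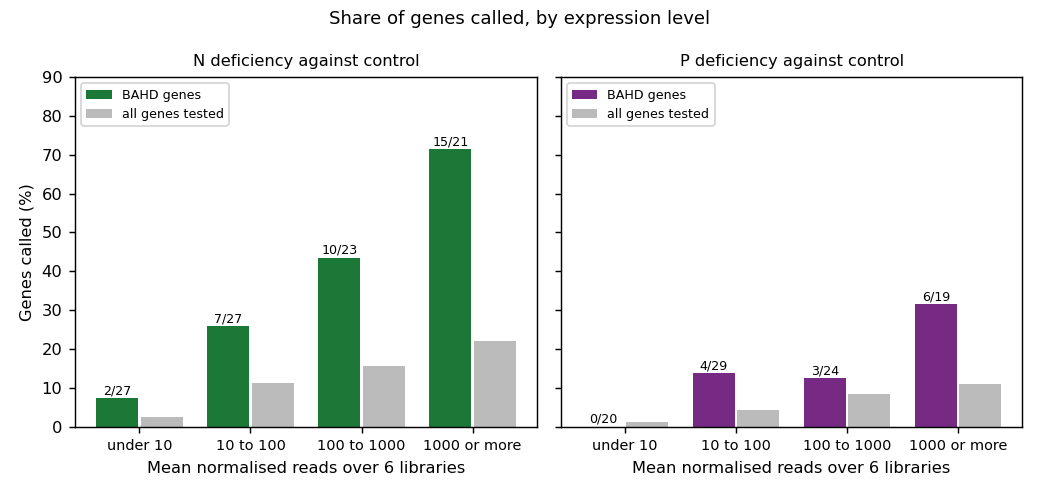
Percentage of genes called (adjusted p under 0.05), by mean normalised reads over the 6 libraries of each comparison, for BAHD genes (coloured, with called over tested above each bar) and for all genes tested (grey). In the highest bin 15 of 21 BAHD genes were called under N deficiency, beside 22.1% of all genes, and 6 of 19 under P deficiency, beside 11% of all genes.

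Os06g0185500 (chromosome 6, 4301775 to 4303137, minus strand) had the largest rise of the family. It had 4016, 6325 and 9506 normalised reads in N-deficient roots, against 576, 320 and 790 in control roots, an 11.8-fold difference in means and a log2 fold change of 3.56 ± 0.370 (SE; limma, adjusted p = 0.00069). The lowest N library stood far above the highest control library, and N library 3 was the highest of all.

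Its neighbour Os06g0185300 (chromosome 6, 4286708 to 4287890, plus strand) followed, with 1315, 1851 and 2428 normalised reads in N-deficient roots, against 282, 259 and 292 in control roots, a log2 fold change of 2.70 ± 0.198 (limma, adjusted p = 0.00016). Both genes were lowest in N library 1 and highest in N library 3, an order that the summed family also had. Os01g0924933 had 765, 1369 and 1576 normalised reads in N-deficient roots, against 262, 122 and 205 in control roots, and rose by 2.65 ± 0.325 on the log2 scale (limma, adjusted p = 0.0014). Os06g0710700 had 1989, 2591 and 3013, against 452, 359 and 582 in control roots, and rose by 2.45 ± 0.201 (limma, adjusted p = 0.00026). None of these 3 genes had overlapping groups, and neither had any other of the 28 rises. A call on 3 against 3 libraries largely brings this with it, and the share among all called genes was not counted.

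AT10 (Os06g0594600; chromosome 6, 23379156 to 23381421, minus strand) had 204, 212 and 273 normalised reads in N-deficient roots, against 52.9, 50.4 and 84.6 in control roots, a log2 fold change of 1.88 ± 0.230 (limma, adjusted p = 0.0014). The other member of its tandem group, Os06g0595800, was expressed at a far higher level and rose by 1.14 ± 0.181, with 7393, 9000 and 9700 normalised reads in N-deficient roots, against 3282, 3570 and 5093 in control roots (limma, adjusted p = 0.0044). Os04g0609300, at 60.9, 58.0 and 77.3 normalised reads in N-deficient roots and 21.9, 11.6 and 19.5 in control roots, rose by 1.86 ± 0.296 (limma, adjusted p = 0.0046).

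Os04g0611200 and Os10g0108700 completed the 8 largest rises among genes with a mean of at least 50 normalised reads in the higher group, at 2.32 ± 0.485 and 2.22 ± 0.601 on the log2 scale (limma, adjusted p = 0.016 and 0.045). Os10g0108700 was uneven, with 50.4, 311 and 185 normalised reads in N libraries 1, 2 and 3, against 44.9, 29.1 and 20.5 in control libraries, so that N library 1 lay only just above control library 1. Its call was lost without N library 2 or 3 or any of the control libraries (adjusted p up to 0.15). It was also lost with a pseudocount of 0.1 (0.053) and with the replicate number as a block. The call of Os04g0611200 was lost without N library 2 or control library 1 (up to 0.060).

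Among other members with high levels, Os05g0136900 had 6916, 6725 and 8981 normalised reads in N-deficient roots, against 2438, 2227 and 3144 in control roots, a log2 fold change of 1.54 ± 0.163 (limma, adjusted p = 0.00075). Os05g0278500 had 1942, 1662 and 1937, against 637, 667 and 792 in control roots, and rose by 1.40 ± 0.116 (limma, adjusted p = 0.00027). Os11g0507200 and Os04g0500700 rose by 0.95 ± 0.174 and 0.87 ± 0.156 (limma, adjusted p = 0.0087 and 0.0079). The highest member of the family, Os02g0611800, had 30335, 33111 and 38741 normalised reads in N-deficient roots, against 19645, 19287 and 24877 in control roots, a 1.60-fold difference in means (log2 fold change 0.68 ± 0.168; limma, adjusted p = 0.031), and Os01g0185300 rose by 0.72 ± 0.144 (limma, adjusted p = 0.013). The calls of these last 2 genes were lost without N library 3, control library 1 or control library 2 (adjusted p up to 0.14 and 0.063).

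The 6 members that fell, like the 28 that rose, had groups that did not overlap, which a call on 3 against 3 libraries largely brings with it. Os01g0854000 (chromosome 1, 36794890 to 36796983, plus strand) was the most abundant of them, with 340, 429 and 457 normalised reads in N-deficient roots, against 1824, 2631 and 6094 in control roots, 8.61-fold higher in control by means (log2 fold change -2.92 ± 0.375; limma, adjusted p = 0.0018). Its control libraries stood in the same order as the summed chlorophyll a-b binding genes given above, lowest in library 1 and highest in library 3. Its N libraries did not, being highest in library 3, where those genes summed lowest. Some rising members, such as Os06g0595800 and Os05g0179300, also had this control order, and others did not. Whether shoot tissue plays a part was not tested. Os04g0664500 had 13.3, 9.15 and 17.6, against 42.6, 79.5 and 99.5 in control roots, again with the lowest control value in library 1 (log2 fold change -2.34 ± 0.378; limma, adjusted p = 0.0049).

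The control libraries of Os12g0459100, described below, also stood in that order, over a narrow range, and those of the other 3 did not. An unnamed locus on chromosome 3 (25831964 to 25834051, plus strand) fell by 2.25 on the log2 scale, Os07g0142700 by 2.03 and Os11g0182200 by 1.26 (limma, adjusted p = 0.0099, 0.0025 and 0.0011). Os07g0142700 had 26.6, 16.3 and 33.3 normalised reads in N-deficient roots, against 105, 113 and 91.1 in control roots. Os12g0459100, named after its values were seen because its control mean of 49.1 lay just under the level of 50 set for naming genes, had 0.951, 6.10 and 1.96 normalised reads in N-deficient roots, against 44.9, 50.4 and 52.1 in control roots (log2 fold change -3.86 ± 0.481; limma, adjusted p = 0.0015). Each of the 6 falls passed under every alternative processing, as did 17 of the 28 rises.

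Among the other rises, Os05g0179300 reached 1.56 ± 0.143 on the log2 scale, with 914, 908 and 964 normalised reads in N-deficient roots, against 275, 287 and 393 in control roots (limma, adjusted p = 0.00042). Os01g0179000, Os08g0205000, Os04g0545700 and Os04g0175450 rose by 1.05 to 1.31 on the log2 scale. Os01g0291500 rose by 0.64 ± 0.112 with a narrow spread, at 3662, 3651 and 3825 normalised reads in N-deficient roots and 2263, 2154 and 2747 in control roots (limma, adjusted p = 0.0068). These 6 genes passed with any 1 library left out. Other small rises lost their call when some libraries were left out. Os06g0145200 at 0.80 was lost without N library 3 or control library 1 or 2, and an unnamed locus on chromosome 3 (30613906 to 30616226) at 0.77 was lost without N library 3 or any control library (adjusted p up to 0.066 and 0.086). Os02g0484975 at 0.62 was lost without N library 2 or 3 or control library 1 or 2, and Os02g0820400 at 0.43 without N library 2 or 3 or any control library (up to 0.13 and 0.11). With no library left out, the locus on chromosome 3, Os02g0484975 and Os02g0820400 also lost their calls in 1 fit over 9 libraries (adjusted p = 0.071, 0.11 and 0.11). Os05g0136800, named after its values were seen, rose at a low level, with 27.6, 25.4 and 23.5 normalised reads in N-deficient roots and 15.0, 6.79 and 5.58 in control roots (limma, adjusted p = 0.039). Its call was lost without any of the N libraries or control library 2 or 3 (up to 0.13). In the authors' deposited table for N deficiency, 33 of the 108 members had an adjusted p under 0.05, beside 13.7% of all its genes. Of these, 27 were higher, beside 7.38% of all genes of the authors' deposited table, and 6 were lower, beside 6.36%.

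**Figure D3:**
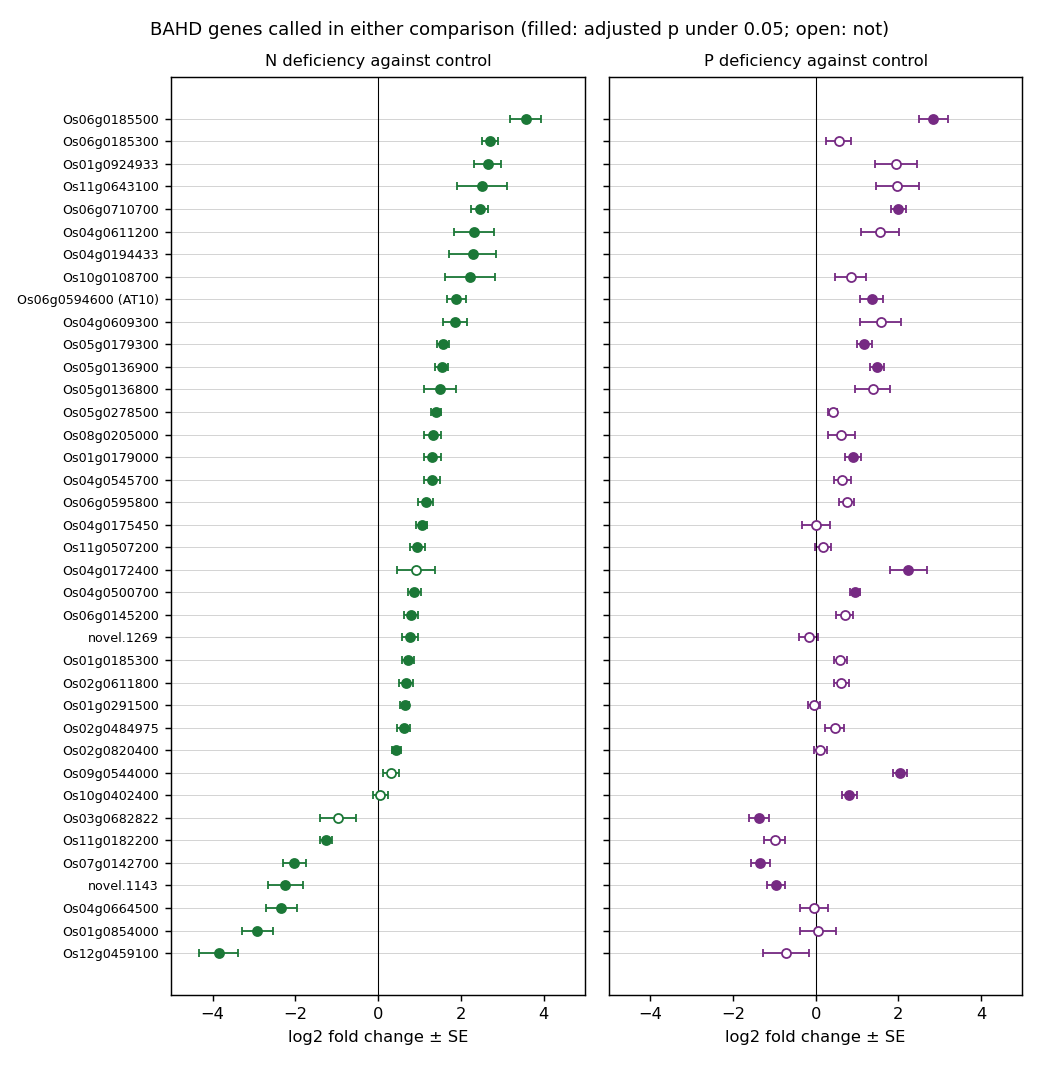
Log2 fold change ± SE of the BAHD genes called in N deficiency against control (left) or in P deficiency against control (right), in the order of the N comparison, with filled points for adjusted p under 0.05. Os06g0185500 stands at the top in both panels, at 3.56 and 2.84, while Os01g0854000 stands at -2.92 on the left and 0.05 on the right. The fitted value of Os11g0643100, which had no control read, depends on the pseudocount.

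For phosphorus the P-deficient libraries were set against the same control libraries, so these calls are not independent of those above. Of 92 members tested, 10 rose, 3 fell and 79 missed the same threshold in limma, 14.1% called beside 6.28% of all 32576 genes tested. The share that rose was 10.9% beside 3.58%, and the share that fell was 3.26% beside 2.7%. In 9 members, 9.78% beside 3.19% of all genes, the called change was at least 1 on the log2 scale. The other 14 members in the table had 2 to 5 reads in all over its 6 libraries and were not tested. The median log2 fold change of the members was 0.11, against 0.00 over all genes. The count was 5 without P library 1, 7 without P library 2, 21 without P library 3, 6 without control library 1 and 7 without control library 2. DESeq2 called 22. The share of all genes called in these other fits was not counted, so the shifts are not read as particular to the members. By the adjusted p of the authors' deposited table, 22 of the 106 members passed 0.05, beside 9.36% of all its genes. Of these, 18 were higher, beside 5.21% of all genes of the authors' deposited table, and 4 were lower, beside 4.15%.

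Os06g0185500 again had the largest rise, with 4213, 2457 and 4540 normalised reads in P-deficient roots, against 552, 306 and 749 in control roots, a 6.97-fold difference in means (log2 fold change 2.84 ± 0.352; limma, adjusted p = 0.0051). Its neighbour Os06g0185300 had 631, 256 and 365 normalised reads in P-deficient roots, against 271, 247 and 277 in control roots, and missed the threshold (0.56 ± 0.293; limma, adjusted p = 0.33). P library 2 of that gene lay within the control range.

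Os09g0544000 (chromosome 9, 21463619 to 21465476, plus strand) rose by 2.04 ± 0.159 on the log2 scale, with 4628, 5115 and 3446 normalised reads in P-deficient roots, against 983, 1016 and 1176 in control roots (limma, adjusted p = 0.00070). Its tandem neighbour Os09g0543900 had 2281, 2076 and 1042, against 855, 947 and 906 in control roots, all higher than control, but did not pass (0.92 ± 0.274; limma, adjusted p = 0.10). Both were lowest in P library 3, as was the summed family among the P libraries. Under N deficiency Os09g0544000 had 1517, 999 and 1698 normalised reads, against 1024, 1063 and 1241 in control roots, groups that overlapped (0.31 ± 0.189; limma, adjusted p = 0.37).

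Os06g0710700 had 2081, 1570 and 1617 normalised reads in P-deficient roots, against 434, 343 and 552 in control roots, a 3.96-fold difference in means with an SE of 0.190 on the log2 scale (limma, adjusted p = 0.0016). Os05g0136900 had 6756, 6086 and 7902, against 2340, 2128 and 2979 in control roots, and rose by 1.48 ± 0.158 (limma, adjusted p = 0.0028). Os04g0500700 had 7834, 7002 and 7371, against 3799, 3348 and 4334 in control roots, and rose by 0.96 ± 0.125 (limma, adjusted p = 0.0061). These 3 genes, Os06g0185500 and Os09g0544000 are the 5 that passed under every alternative.

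AT10 had 117, 142 and 205 normalised reads in P-deficient roots, against 50.8, 48.2 and 80.2 in control roots, and rose by 1.36 ± 0.279 (limma, adjusted p = 0.033), a call lost without P library 1 or 2 or control library 1 or 2 (adjusted p up to 0.13). Os04g0172400 rose by 2.24 ± 0.453 at a low level, with 95.1, 79.5 and 60.8 normalised reads in P-deficient roots, against 22.1, 23.2 and 7.05 in control roots (limma, adjusted p = 0.031, up to 0.12 without those same libraries). Os05g0179300 rose by 1.18 ± 0.186 (limma, adjusted p = 0.013), a call lost without P library 1 or control library 1 or 2 (up to 0.066). The smaller rises were Os01g0179000 at 0.91 ± 0.197, lost without any of the P libraries or control library 1 or 2, and Os10g0402400 at 0.81 ± 0.176, lost without P library 1 or 2 or any of the control libraries (limma, adjusted p = 0.039 each, up to 0.13 and 0.14).

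The 3 falls were modest. Os07g0142700 had 34.8, 49.7 and 31.8 normalised reads in P-deficient roots, against 101, 108 and 86.3 in control roots, and fell by 1.34 on the log2 scale (limma, adjusted p = 0.017). Os03g0682822 fell by 1.37 and the unnamed locus at 25831964 on chromosome 3 by 0.96 (limma, adjusted p = 0.020 and 0.045). All 3 calls were lost when some libraries were left out: P library 1 or control library 1 or 2 for Os07g0142700 (adjusted p up to 0.084), P library 1 or 2 or control library 2 or 3 for Os03g0682822 (up to 0.094), and any of the P libraries or control library 1 for the unnamed locus (up to 0.14). In 1 fit over 9 libraries Os03g0682822 and the unnamed locus also lost their calls (adjusted p = 0.071 and 0.18).

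The highest member, Os02g0611800, had 34673, 31807 and 26686 normalised reads in P-deficient roots, against 18859, 18433 and 23570 in control roots. Its groups did not overlap, but it did not pass with limma (log2 fold change 0.61 ± 0.181; adjusted p = 0.099), while its adjusted p in the authors' deposited table was 0.0039. Os06g0595800, at 7093, 6166 and 5615 in P-deficient roots and 3150, 3412 and 4826 in control roots, did not pass either (0.75 ± 0.179; limma, adjusted p = 0.054). Os01g0924933 had 433, 482 and 1573 in P-deficient roots, against 252, 117 and 194 in control roots. It missed the threshold in limma (1.94 ± 0.503, adjusted p = 0.069), as did Os01g0185300 (adjusted p = 0.073). In the authors' deposited table the adjusted p was 0.0052 for Os06g0595800 and 0.00026 for Os01g0924933. It was 0.0075 there for Os01g0185300 and 0.0063 for Os09g0543900.

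**Figure D4:**
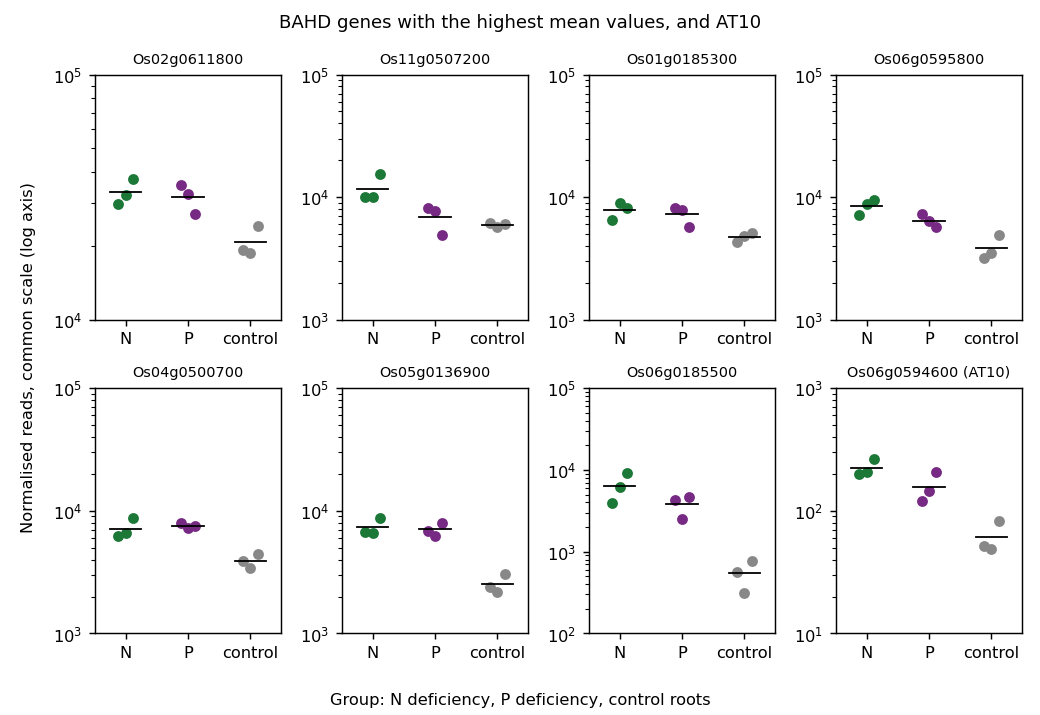
Normalised reads (common scale, log axis) in each library of the 6 BAHD genes with the highest mean values, of Os06g0185500 and of AT10, for N-deficient, P-deficient and control roots, with bars at the group means. The points of Os06g0185500 show the widest gap, with N libraries from 3910 to 9243 and P libraries from 2525 to 4612, all far above the control libraries.

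N-deficient and P-deficient roots were compared directly over all 9 libraries, which tests whether a member's level differed between the deficiencies. Of 96 members tested, 3 were higher and 5 lower in N-deficient roots than in P-deficient roots by the same threshold in limma, 8.33% called beside 3.78% of all 32806 genes tested. The higher share was 3.12% beside 1.39%, and the lower share 5.21% beside 2.4%. In 5 of the 8, 5.21% of members beside 2.26% of all genes, the difference was at least 1 on the log2 scale. The count was 5 without N library 3, and DESeq2 called 14, fits for which the share of all genes called was not counted. Values in the next 2 paragraphs are on the common scale.

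The 3 higher genes were Os06g0185300, Os05g0278500 and Os01g0291500. Os06g0185300 had 1281, 1801 and 2361 normalised reads in N-deficient roots, against 643, 263 and 370 in P-deficient roots (log2 difference 2.14 ± 0.300; limma, adjusted p = 0.0030). Its neighbour Os06g0185500 had 3910, 6153 and 9243 in N-deficient roots, against 4297, 2525 and 4612 in P-deficient roots, groups that overlapped, and did not pass (0.72 ± 0.383; limma, adjusted p = 0.40). Os05g0278500 (chromosome 5, 11609491 to 11615022, minus strand) had 1891, 1617 and 1883 normalised reads in N-deficient roots, against 919, 823 and 967 in P-deficient roots (0.99 ± 0.115; limma, adjusted p = 0.00085). Os01g0291500 had 3566, 3552 and 3719, against 2661, 2256 and 1910 in P-deficient roots (0.68 ± 0.136; limma, adjusted p = 0.022), a call lost without any of the N libraries or P library 2 (up to 0.092).

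The 5 lower genes fell into those low in N-deficient roots and those high in P-deficient roots. Os01g0854000 had 331, 417 and 444 normalised reads in N-deficient roots, against 2574, 2524 and 4609 in P-deficient roots (-2.97 ± 0.389; limma, adjusted p = 0.0019), and Os04g0664500 had 13.0, 8.90 and 17.1, against 82.8, 61.3 and 57.0 (-2.31 ± 0.350; limma, adjusted p = 0.0050). Os12g0459100 had 0.926, 5.93 and 1.90, against 37.9, 57.2 and 10.4 in P-deficient roots (-3.13 ± 0.617; limma, adjusted p = 0.021), with a call lost without N library 1 or 3 or P library 1 or 2 (up to 0.088). Os09g0544000 had 1477, 972 and 1651 in N-deficient roots, against 4721, 5256 and 3500 in P-deficient roots (-1.73 ± 0.206; limma, adjusted p = 0.0010). Os10g0402400 had 63.9, 65.3 and 63.7, against 105, 128 and 98.8 in P-deficient roots (-0.76 ± 0.164; limma, adjusted p = 0.031), with a call lost without any of the N libraries, P library 1 or 2 or control library 2 (up to 0.13). The calls of Os12g0459100 and Os10g0402400 were also lost in a fit of the N and P libraries alone.

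**Figure D5:**
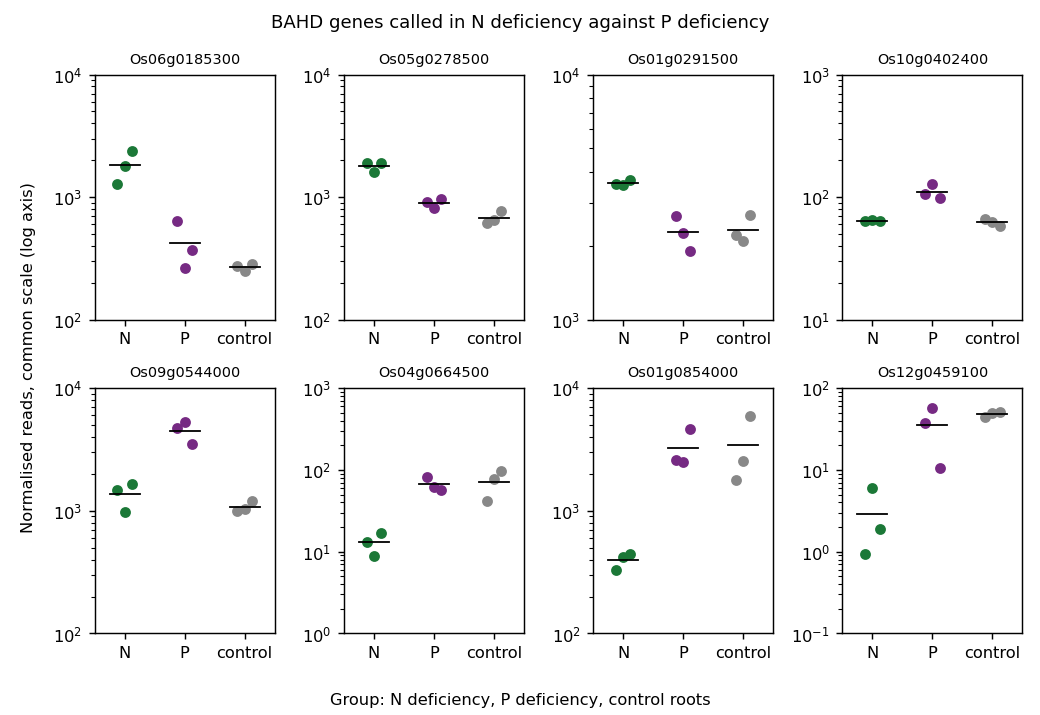
Normalised reads (common scale, log axis) in each library of the 8 BAHD genes called in N deficiency against P deficiency, for N-deficient, P-deficient and control roots, with bars at the group means. For Os09g0544000 the P libraries stand above both other groups, and for Os01g0854000 and Os04g0664500 the N libraries stand below both.

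Many members lie beside each other. With neighbours within 100 kb joined, 60 of the 109 genes fell into 20 tandem groups of 2 to 6 genes, and 49 stood alone. Of the 109, 22 overlap another member on the other strand. Some groups, such as Os05g0136800 with Os05g0136900, are only such a pair at 1 place and not neighbouring copies. Under N deficiency 13 of the 52 tested members in tandem groups rose and 1 fell, and 15 of the 46 that stood alone rose and 5 fell, where 6.9% of all genes rose and 5.94% fell. Under P deficiency 4 of 50 in tandem groups rose and none fell, and 6 of 42 alone rose and 3 fell, where 3.58% of all genes rose and 2.7% fell. The difference between tandem and lone members was not tested, and the tandem counts include the overlapping pairs. Neighbours often differed. In the 4-gene group on chromosome 6 (4266432 to 4303137), Os06g0185300 and Os06g0185500 rose under N deficiency, while Os06g0184866 averaged 125 ± 8.19 normalised reads in N-deficient roots and 99.9 ± 15.4 in control roots (SD, n = 3 each) and did not pass, and Os06g0184900 had 0.951, 1.02 and 0 in N-deficient roots, against 1.15, 0.970 and 0.930 in control roots. In the 6-gene group on chromosome 10 (432396 to 592675), Os10g0108700 was the 1 gene called under N deficiency, and the other 5 stayed below 10 normalised reads in every N and control library. In the 5-gene group on chromosome 8 (594453 to 657391), none of the 5 tested genes passed in any of the 3 comparisons, although Os08g0111300 had 1533, 1584 and 1507 normalised reads in N-deficient roots and 1388, 1485 and 1569 in control roots.

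Of the 109 genes, 29 share bases with another gene of the tables, 27 of them with a gene on the other strand. Whether counting used strand is unstated, so reads of such partners cannot be told apart. This touches Os05g0136900 and Os05g0136800, Os01g0185300 and Os01g0185250, Os01g0291500 and Os01g0291733, Os05g0278500 and Os05g0278550, and Os02g0484975 and Os02g0485000, each overlapping its partner on the other strand, and Os04g0611200, which overlaps a gene outside the family on the other strand. Os01g0185300 and Os08g0205000 overlap a gene outside the family on their own strand. Os06g0185500, Os06g0185300, Os06g0710700, Os09g0544000, Os01g0854000 and AT10 overlap no other gene of the tables. Tandem copies may also share reads where their sequences are close, which was not examined.

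Other steps of the pathways that use BAHD enzymes were read from lists matched on their Pfam domain. For the counts that follow, 6.9% of all genes tested rose and 5.94% fell under N deficiency. Under P deficiency 3.58% rose and 2.7% fell. Among all genes with a mean of 1000 normalised reads or more, 13.6% rose under N deficiency and 6.75% under P deficiency. The lists were not matched for level. Phenylalanine and tyrosine ammonia lyases, which open phenylpropanoid synthesis, rose in 4 of 9 tested genes under N deficiency and 2 of 9 under P deficiency, with none lower and medians of 0.85 in both. Their summed level was 224943 to 281213 normalised reads in N-deficient roots and 155662 to 206138 in P-deficient roots, against 112180 to 166485 in control roots, on the common scale. Genes of the caffeoyl-CoA O-methyltransferase type, which methylate lignin precursors, rose in 2 of 6 and 1 of 6, and those of the caffeic acid O-methyltransferase type rose in 4 and fell in 1 of 26 under N deficiency and rose in 1 and fell in 1 of 26 under P deficiency. The sums of both methyltransferase lists were higher in every deficient library than in any control library. AMP-binding acyl-CoA ligases, the family of 4-coumarate:CoA ligase that supplies the acyl donors, went both ways, with 7 higher and 5 lower of 49 under N deficiency and 4 higher and 1 lower of 48 under P deficiency. On the common scale these ligases summed to 54634 to 61324 normalised reads in N-deficient roots, below the 66477 to 87243 of control roots. P-deficient roots had 80929 to 89103.

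On the side of suberin and the wall, 3-ketoacyl-CoA synthases, which elongate very long acyl chains, rose in 7 of 16 genes under N deficiency and 2 of 17 under P deficiency with none lower, at medians of 0.81 and 0.49. Fatty acyl reductases rose in 2 of 8 and 1 of 8. Glycosyltransferase family 61 genes, whose members add side chains to arabinoxylan, rose in 7 of 30 and 3 of 30 with none lower. CASP-type membrane proteins, the family that includes the scaffold proteins of the Casparian strip, rose in 11 of 35 under N deficiency, and rose in 2 and fell in 1 of 35 under P deficiency.

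On the polyamine and amine side, none of 3 spermidine synthase type genes passed in either deficiency. Of 4 S-adenosylmethionine decarboxylase genes 1 fell under N deficiency and none passed under P deficiency. On the common scale these 4 genes summed to 1588 to 1711 normalised reads in N-deficient roots and 1567 to 1778 in P-deficient roots. Control roots had 2079 to 2196, above every deficient library. Of the ornithine and arginine decarboxylase type genes 1 of 5 rose under N deficiency and 1 of 6 under P deficiency. Their sum was higher under P deficiency, at 5107 to 7131 against 3324 to 4148 in control roots. Genes matched on the domain of tyrosine and tryptophan decarboxylases rose in 1 and fell in 4 of 14 under N deficiency. Under P deficiency they rose in 1 and fell in 1 of 14. The domain match behind the decarboxylase lists assigns no substrate, so these changes cannot be placed on amine synthesis. Beside these counts, 12.8% of all genes tested were called under N deficiency and 6.28% under P deficiency.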

How the data were processed

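The members and gene lists were chosen with earlier results of these data known. Libraries were made with a TruSeq RNA kit, per the labels' protocols. The submitters' processing notes name HISAT2 2.0.5 and hg38, a human assembly. No source used here states the rice build, the annotation or the counter.

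The deposited library columns hold a normalised signal, gene reads divided by 1 size factor per library within each of 2 tables. Whole reads were recovered for 100% of values (tolerance 0.001). In P library 2 a read is worth nearly 1, so whole multiples are a weak check there. Between the tables, 0 control reads differed. The deposited tables also give the authors' log2 fold change and their p-value columns, made by a test that no label states.

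Values as log2(value + 1) were tested in R 4.3.3 by limma 3.58.1, letting the variance follow the mean, on the 6 libraries of each table, for genes with a mean of at least 1 in 1 of the groups, with Benjamini-Hochberg adjustment over all genes tested and a threshold of 0.05. The direct contrast of N and P deficiency used all 9 libraries, on recovered reads with median-of-ratios size factors. Because of the pseudocount, fold changes of low genes are understated. The same steps were tested on simulated reads. Alternatives were edgeR 4.0.16, DESeq2 1.42.0, other filters and pseudocounts, the replicate number as a block, other sample sets and each library left out.

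Named genes were those called with at least 50 normalised reads in the higher group (the 8 largest each way in full), the 6 with the highest mean, Os06g0185500, their tandem neighbours, and for likeness the 3 genes with the highest Pearson correlation of log2 values with Os06g0185500. Replicate libraries of a group differed beyond counting noise, at 8.24 to 49.8 times the chi-square of pure counting (chi-square over its degrees of freedom). The largest values were those of P library 3 with P libraries 1 and 2 (42.4 and 49.8), beside 9.01 for P library 1 with P library 2.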

Additional observations from a re-analysis of the deposited data

Results flagged for a closer look

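In 8 genes the level differed between N-deficient and P-deficient roots in the direct test over 9 libraries (limma, Benjamini-Hochberg adjusted p under 0.05), which is also the test of whether the 2 responses differ, since both have the same controls. The log2 difference, N minus P, was 2.14 for Os06g0185300, 0.99 for Os05g0278500 and 0.68 for Os01g0291500. It was -3.13 for Os12g0459100, -2.97 for Os01g0854000, -2.31 for Os04g0664500, -1.73 for Os09g0544000 and -0.76 for Os10g0402400. Groups of 3 libraries are too small for a test of single outlying samples, and none was made.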

How the results depend on the processing

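Under N deficiency the count of called BAHD genes was 34 and lay between 24 and 31 with 1 library left out, and between 31 and 34 under the other alternatives. Under P deficiency it was 13, with 5 to 21 when 1 library was left out, 22 with DESeq2 and 13 to 17 under the rest. For N against P deficiency it was 8, with 5 to 10 when 1 library was left out, 14 with DESeq2 and 6 to 9 under the rest. The causes were not tested, beyond the loss of a library in a fit of 6 or 9. Nor was the share of all genes called under each alternative counted, so these shifts are not read as particular to the members. With the replicate number as a block the counts were 34, 13 and 8, of which 33, 12 and 8 were the same genes: Os10g0108700 lost its call under N deficiency (adjusted p = 0.054) and Os10g0402400 under P deficiency (0.062), while Os01g0615300 and Os01g0924933 gained one. Same-numbered libraries 2 and 3 deviated together in every pair of groups (correlations of deviations 0.26 to 0.45). Library 2 of 1 group and library 3 of another deviated in opposite ways (-0.49 to -0.23). Libraries numbered 1 did not share this (-0.16 to 0.07). The numbers thus go with a part of the variation in libraries 2 and 3, and its source is unstated and was not tested. No named gene reversed its sign with a call on either side. Of the named genes that passed, 22 of 30 under N deficiency, 5 of 13 under P deficiency and 5 of 7 in N against P deficiency passed under every alternative.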

Other observations

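Low members also held calls. Os11g0643100 had 11.4, 4.07 and 1.96 normalised reads in N libraries 1, 2 and 3 and none in the control libraries, 18 reads in all, and passed with limma (adjusted p = 0.028) but not with edgeR or DESeq2. Os04g0194433 passed with limma (adjusted p = 0.033), but not with edgeR, DESeq2 or limma at a pseudocount of 0.1, on 5.71, 4.07 and 8.80 normalised reads in N-deficient roots, against 0, 0 and 1.86 in control roots. With 1 library left out, the adjusted p reached 0.081 for Os11g0643100 (lost without N library 1 or 2 or any control library) and 0.13 for Os04g0194433 (lost without any N library or control library 1 or 2). Both were named after their values were seen.

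By log2 level over the 9 libraries, the 3 genes most like Os06g0185500 among 20675 genes with a mean of at least 50 were Os12g0479400, with an AUX/IAA domain, Os02g0110600, with a protein tyrosine kinase domain, and Os04g0408600, with a transcriptional activator domain. This ranks likeness across 3 groups that differ and is a description only.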
